A study of Homo sapiens with 6 samples.

Results

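The potassium channel genes described here are the protein-coding genes whose symbols start with KCN, leaving out KCNJ10 and KCNJ16. Gene symbols alone decided which genes belong, and 95 of the 19871 protein-coding genes of the annotation met the rule. The rule itself was chosen with earlier results of these data known. Grouped by symbol, they include 67 genes of pore-forming families, 10 genes for pore-type subunits that only modify other voltage-gated channels, and 18 genes for auxiliary or regulatory subunits. For 94 of the 95 the symbol is also that of a protein-coding gene in RefSeq. KCNE1B, a near-copy of KCNE1, has its name from GENCODE only, and reads shared between these copies make both uncertain.

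Potassium channels let potassium ions pass across the cell membrane down their gradient and so set the resting potential and end electrical signals. Voltage-gated (Kv) channels open on depolarisation, calcium-activated channels open when internal calcium rises, inward rectifiers (Kir) pass current near rest, and the two-pore-domain (K2P) channels provide background leak. Astrocytes are known for a strongly negative resting potential and for taking up the potassium that active neurons release.

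The samples were astrocytes differentiated from H1, an established human embryonic stem cell line, so the samples share 1 genotype. The labels name no transgene, agent or day of culture. They give 2 regional characters, called Control iAst (forebrain) and VM iAst (ventral midbrain), and 3 replicates of each that carry the numbers 2, 3 and 4. Libraries were made with QuantSeq, which sequences the 3' end of polyadenylated transcripts. Under source the labels say astrocyte, and under cell type they say embryonic stem cell.

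The libraries held 11617935 to 15391082 estimated reads. Levels are given as CPM, counts scaled to a common library size after TMM scaling, in the order of replicates 2, 3 and 4, and TPM is given where genes are compared with each other. Of the astrocyte markers, GFAP averaged 362 CPM in control and 371 CPM in ventral midbrain libraries and VIM 3609 and 4485, while ALDH1L1 averaged 1.07 and 1.5 and SLC1A2 2.56 and 1.76. Of the 11 astrocyte markers, 3 rose by edgeR in ventral midbrain libraries, AQP4 (3.86 to 30.5 CPM, adjusted p = 0.048), SLC1A3 (35.4 to 94.4, 0.034) and NFIA (110 to 196, 0.045), and none fell, while under the replicate block 3 were higher and 3 lower. Nothing in the labels says that replicates were separate cultures. The p-values therefore cover only the spread between these 6 libraries, which may be technical. In bulk RNA, fewer cells of a type and less RNA per cell cannot be told apart.

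The pore of a potassium channel is lined by a short stretch, the selectivity filter, whose residues glycine, tyrosine or phenylalanine, and glycine hold the ion. The coding sequences were searched in frame, on the coding strand, for a codon NTN, then GGN, then either TAN or TTN, then GGN, in direct succession. These codons spell that stretch and the hydrophobic residue before it, and the TTN form also admits leucine. A match was found in 75 of the 95 genes, against 1063 of 19449 protein-coding genes scanned (5.47%). All 30 Kv pore genes, all 10 modifier genes, all 8 calcium- or sodium-activated genes and all 14 inward rectifier genes held it, and none of the 18 auxiliary genes did. K2P subunits carry a pair of pore loops, and among their 15 genes a match was found in 13, at 2 places in 11 of them. KCNK1 and KCNK7 held no match, which says only that these letters are absent. The pore loops of genes on which the results turn are shown to set the families side by side, 5′ to 3′ on the coding strand, with the 12 matched bases in capitals.
KCNA5: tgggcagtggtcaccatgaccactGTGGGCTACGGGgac
KCND2: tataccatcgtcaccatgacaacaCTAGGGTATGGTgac
KCNMA1: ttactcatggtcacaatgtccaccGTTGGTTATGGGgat
KCNN3: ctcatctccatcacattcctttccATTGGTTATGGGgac
KCNJ6: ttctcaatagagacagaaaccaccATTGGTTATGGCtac
KCNJ8: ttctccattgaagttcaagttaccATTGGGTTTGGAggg
KCNK3 loop 1: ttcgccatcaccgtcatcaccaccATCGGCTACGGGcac
KCNK3 loop 2: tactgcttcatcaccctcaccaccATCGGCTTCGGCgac
These are GRCh38 sequences of GENCODE transcripts. They lie in coding exons at chr12:5045564-5045602 (plus strand) for KCNA5, chr10:77110233-77110271 (minus) for KCNMA1 and chr1:154733057-154733095 (minus) for KCNN3. The KCNJ6 stretch lies at chr21:37714686-37714724 (minus) and that of KCNJ8 at chr12:21766563-21766601 (minus). The KCND2 stretch is split by an intron between chr7:120275719-120275747 and chr7:120732903-120732912 (plus). The first KCNK3 loop is split between chr2:26693131-26693158 and chr2:26727667-26727677 (plus), and the second lies at chr2:26727957-26727995. KCNJ8 and the second loop of KCNK3 carry the phenylalanine form, and the other 6 stretches carry the tyrosine form.

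Of the 95 genes, 64 were detected, meaning at least 5 reads in at least 3 of the 6 libraries. That is 67.4%, beside 71.4% of all protein-coding genes under the same rule. In all 6 libraries 36 genes reached 5 reads, and 13 genes had no read in any library. Another 12 genes reached 5 reads in only 1 or 2 libraries. A gene with no read may still be present at up to 3 reads, which is 0.195 to 0.257 CPM in these libraries (counting error only).

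The auxiliary subunits were all detected, 18 of 18, and 7 of them reached 5 reads in every library. The calcium- or sodium-activated family had 6 of 8 genes detected, lacking KCNN2 (SK2) and KCNT1. Inward rectifiers had 9 of 14, with KCNJ1, KCNJ9, KCNJ11, KCNJ15 and KCNJ18 not detected. KCNJ11 encodes Kir6.2, one of the pore subunits of ATP-sensitive channels, and its relative KCNJ8 (Kir6.1) was among the most abundant members. Of the Kv pore genes 18 of 30 were detected. All 3 Kv4 genes (KCND1, KCND2, KCND3) were among them, whereas KCNA3, KCNA6, KCNA10, KCNB2, KCNC2, KCNH4 to KCNH7, KCNQ1 and KCNQ5, for example, were not. Modifier subunits had 5 of 10 detected, without KCNG3, KCNG4, KCNS2, KCNV1 and KCNV2. Detection counts the reads of all transcripts of a gene, coding or not. All KCNG2 reads and 90.8% of KCNE1 reads were assigned to a transcript annotated as processed, not as protein-coding. For KCNH2, 63.4% of reads were assigned to a transcript with a retained intron. K2P channels had 8 of 15, and KCNK4, KCNK7, KCNK9, KCNK12, KCNK16, KCNK17 and KCNK18 were not detected. The 15 detected genes that were too low for the test below included KCNA7, KCND2, KCNH1 and KCNH3, the modifier KCNG2, the auxiliary KCNE1B, KCNE2, KCNE4, KCNIP4, KCNMB1 and KCNMB2, and KCNN4, KCNU1 and KCNJ13.

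**Figure D1:**
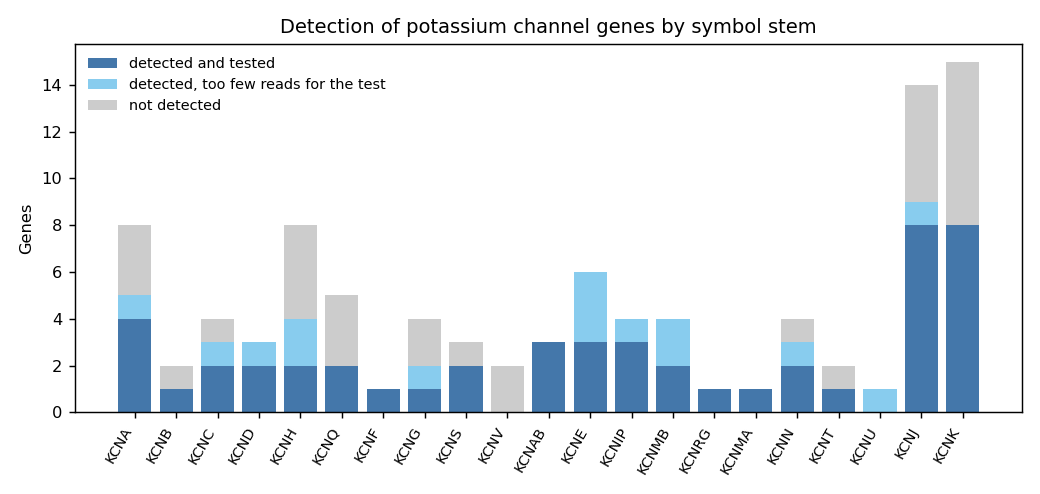
Number of potassium channel genes (vertical axis) per symbol stem (horizontal axis) that were detected and tested, detected but not tested, or not detected. All 18 auxiliary genes were detected, against 8 of 15 two-pore-domain and 5 of 10 modifier genes.

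Few members were abundant: 7 of the 64 detected genes averaged at least 10 CPM over the 6 libraries, 37 lay between 1 and 10 CPM and 20 below 1 CPM. KCNK3, which encodes the acid-sensitive leak channel TASK-1, came first at 244 CPM and 25.9 TPM. KCNJ8 came second by both measures, at 44.0 CPM and 9.16 TPM. KCNE5, a small single-pass partner of Kv7.1, ranked 3 by TPM (8.52) and KCNIP3, a calcium-binding protein, ranked 4 (5.93), while by CPM they ranked 6 and 5. KCNN3 ranked 4 by CPM and 21 by TPM. TPM divides by transcript length, whereas these libraries draw reads from a transcript's end whatever its length.

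KCNK3 carried a large part of all potassium channel reads. It took 44.3%, 27.6% and 39.8% of them in control and 50.2%, 50.0% and 51.3% of them in ventral midbrain libraries. The summed level of all 95 genes was 434 ± 87.5 CPM in control and 637 ± 79.3 CPM in ventral midbrain libraries (SD, n = 3 each). Without KCNK3 the sums were 268 ± 34.5 and 315 ± 35.5 (SD, n = 3 each). The K2P sum was 189 ± 67.2 against 344 ± 51.5 CPM, and 23.6 ± 7.03 against 22.0 ± 7.56 without KCNK3 (SD, n = 3 each). For the auxiliary subunits it was 55.2, 40.2 and 49.5 CPM in control and 95.1, 67.7 and 90.6 CPM in ventral midbrain libraries, so the groups did not overlap. Without KCNIP3 the auxiliary sum was 40.4 ± 5.34 and 51.5 ± 2.78 CPM (SD, n = 3 each), again without overlap. Kv pore genes summed to 81.6 ± 25.1 and 66.3 ± 6.62, inward rectifiers to 60.04 ± 7.91 and 81.1 ± 19.2, calcium- or sodium-activated genes to 40.4 ± 5.22 and 47.0 ± 7.72, and modifiers to 14.1 ± 2.10 and 14.3 ± 3.14 CPM (SD, n = 3 each). The last 4 sums overlapped between the groups.

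**Figure D2:**
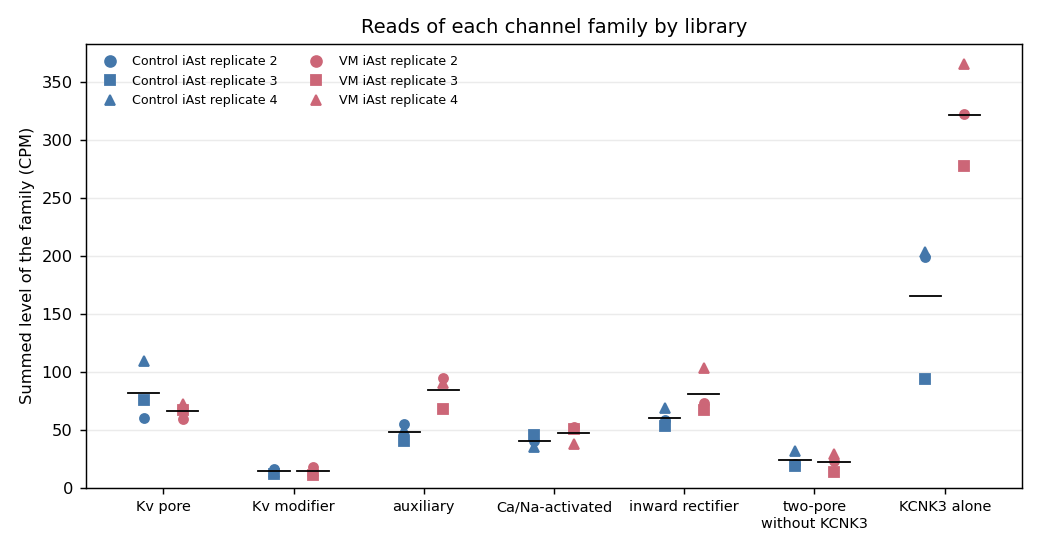
Summed CPM (vertical axis) of each channel family in each library, with points for control and ventral midbrain replicates and black lines for group means. KCNK3 is plotted alone, where its groups stand apart, and the two-pore-domain family without it overlaps between the groups.

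The comparison asks which channel genes differ between astrocytes of ventral midbrain and of forebrain character. In ventral midbrain libraries 3 genes of different families rose, the Kv channel gene KCNA5, the G protein-gated inward rectifier gene KCNJ6 and the calcium sensor gene KCNIP3, by 2.06 to 2.51 on the log2 scale, and no tested potassium channel gene fell. Of the 64 detected genes, 49 passed the low-count filter of the test and 46 of these did not pass an edgeR adjusted p of 0.05. The 3 calls are 6.12% of the tested members, beside 2.15% of all 15984 genes tested (1.06% higher, 1.09% lower). An unadjusted p under 0.05 was met by 11 members (22.4%), beside 12% of all genes. The fitted log2 fold change was positive for 25 and negative for 24 members, beside 51.7% positive and 48.3% negative of all genes tested, and its median was 0.0087 over the members and 0.014 over all genes. Groups did not overlap for 7 members higher and 3 lower in ventral midbrain libraries, beside 9.17% and 8.75% of all genes. DESeq2 called 4 members, all of them higher (8.16%), beside 4.69% of all genes (2.13% higher). Voom called 2, both higher (4.08%), beside 2.1% of all genes (1.01% higher).

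The replicate numbers were checked for pairing, and libraries with the same number deviated together. With the number as a block, 7 members passed, 5 higher and 2 lower (14.3%), beside 8.13% of all genes (3.63% higher, 4.5% lower). Among the 4 added were KCNK3 and KCNN3, higher, and KCNA4, lower in ventral midbrain libraries, and without the block the adjusted p of these genes ranged from 0.15 to 0.25. Summed levels of 4 marker lists for other cells also stood apart between the groups. Neuron markers summed to 1359 to 2103 CPM in control and 859 to 1250 in ventral midbrain libraries, with RBFOX3 at 0.277 and 0.322 CPM. STMN2, the most abundant of them, averaged 1061 and 449 CPM. MAP2 (234 and 252 CPM), TUBB3 (226 and 231) and GAP43 (58.6 and 85.6) were not lower. Without the block 0 of 14 tested neuron genes passed the edgeR threshold, with 9 negative and 5 positive fold changes. Under the block 6 were lower and 0 higher. The 6 were STMN2, DCX, INA, NEFM, NEFL and NSG2 (edgeR adjusted p 0.0034 to 0.030). For mesenchymal markers the sums were 956 to 1570 and 516 to 613 (3 of 9 lower, and under the block 4 lower and 1 higher), and for ependyma and choroid plexus markers 5.82 to 19.5 and 58.6 to 89.6 (0 of 3 past the threshold, TTR without reads). Under the block FOXJ1 (10.2 and 62.4 CPM, edgeR adjusted p = 0.0013) and DNAH9 (2.76 and 7.05 CPM, adjusted p = 0.028) were higher. Oligodendrocyte lineage markers summed to 121 to 138 and 93.6 to 114 CPM (1 of 3 lower, and under the block 1 lower and 1 higher, SOX10 without reads). Their part in the results below was not tested.

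**Figure D3:**
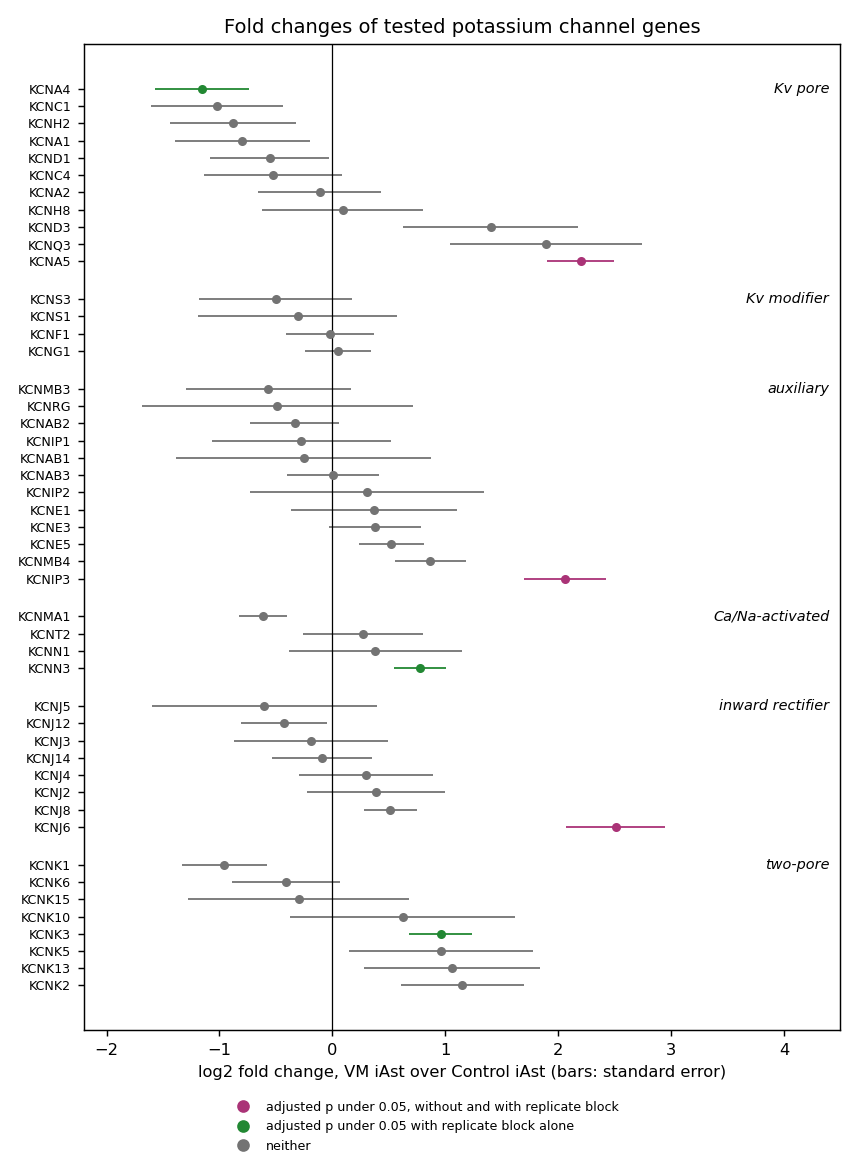
Fitted log2 fold change, ventral midbrain over control, with its standard error for tested potassium channel genes, grouped by family. KCNA5, KCNJ6 and KCNIP3 lie above 2 and passed the test, and most of the others lie within 1 of zero.

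Among the Kv pore genes KCNA5 stood out. It encodes Kv1.5, a delayed rectifier best known from the heart atrium and blood vessels. It measured 2.27, 2.57 and 3.33 CPM in control replicates 2, 3 and 4 and 13.7, 12.7 and 11.2 CPM in ventral midbrain replicates 2, 3 and 4. Every ventral midbrain library was far above every control library, with little spread within a group. The mean rose from 2.72 ± 0.546 to 12.5 ± 1.28 CPM (SD, n = 3 each), a log2 fold change of 2.20 ± 0.30 (SE), with an edgeR adjusted p of 0.0045. The call was kept in each of 6 fits that left out 1 library (adjusted p 0.016 to 0.027). The gene lies on GRCh38 chromosome 12 from 5043989 to 5046788. All its reads were assigned to 1 transcript, KCNA5-201, and no other gene with reads has exons that overlap it.

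No other tested KCNA gene rose. KCNA4, whose protein Kv1.4 carries a fast A-type current, measured 7.46, 5.56 and 10.4 CPM in control and 2.08, 3.21 and 5.23 CPM in ventral midbrain libraries. The groups were apart, with ventral midbrain lower, by a narrow margin. The fitted difference was -1.16 ± 0.42 (SE) on the log2 scale, with an edgeR adjusted p of 0.25, or 0.047 under the replicate block. KCNA1 (2.65 ± 1.28 and 1.52 ± 0.676 CPM) and KCNA2 (1.89 ± 0.633 and 1.75 ± 0.324 CPM, SD, n = 3 each), which encode axonal delayed rectifiers, overlapped between the groups.

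KCNQ3 encodes a Kv7 subunit of the M-current, which restrains repeated firing. It measured 0.219, 0.257 and 1.44 CPM in control and 0.975, 3.69 and 2.58 CPM in ventral midbrain libraries, with overlap (log2 fold change 1.89 ± 0.85, SE, with an edgeR adjusted p of 0.41). Of the remaining tested Kv pore genes, KCND1, KCND3, KCNH2, KCNH8, KCNC1 and KCNC4 had log2 fold changes from -1.02 (KCNC1) to 1.40 (KCND3), with edgeR adjusted p of at least 0.55. The median over the 13 tested Kv pore genes was -0.53.

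The modifier subunits, which are silent alone and alter other Kv channels, had 0 of 4 tested genes called by edgeR, by DESeq2 or by voom, and in 0 of them was the unadjusted edgeR p under 0.05. KCNG1, the most abundant by CPM, measured 6.80, 6.67 and 6.96 CPM in control and 8.26, 5.41 and 7.52 CPM in ventral midbrain libraries, and KCNF1 measured 6.29, 3.85 and 3.86 against 6.18, 3.84 and 3.8. Within each replicate number the KCNF1 values were nearly the same in both groups. Their log2 fold changes were 0.053 ± 0.29 and -0.019 ± 0.39 (SE). KCNS1 and KCNS3 lay between 0.157 and 1.46 CPM in every library.

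The Kv4 channels carry the A-type current with a calcium sensor of the KChIP family (KCNIP genes) and a dipeptidyl peptidase-like subunit (DPP6, DPP10) in one complex. Of this complex KCNIP3 rose and DPP10 fell. KCNIP3, also known as calsenilin or DREAM, additionally acts as a transcriptional repressor. It measured 9.0, 4.62 and 9.98 CPM in control and 42.4, 19.4 and 37.2 CPM in ventral midbrain libraries. Replicate 3 was the lowest in both groups, and the groups did not overlap. The mean rose from 7.87 ± 2.85 to 33.0 ± 12 CPM (SD, n = 3 each), a log2 fold change of 2.06 ± 0.36 (SE), with an edgeR adjusted p of 0.021, or 1.4e-05 under the replicate block. Within the replicate numbers the log2 ratio was 2.24, 2.07 and 1.90. The call was lost, with adjusted p of 0.072, 0.076, 0.077 and 0.074, without control replicate 2, control replicate 4, ventral midbrain replicate 2 or ventral midbrain replicate 4. The coding transcript KCNIP3-201 took 96.8% of the gene's reads over the 6 libraries. It took none in control replicate 3, where the reads were assigned to other transcripts of the gene. The gene lies on GRCh38 chromosome 2 from 95297304 to 95386083.

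KCND2, the Kv4.2 pore gene, had reads in control libraries alone, at a low level. It had 7, 10 and 20 reads in control replicates 2, 3 and 4 and 0 in each ventral midbrain library. No other member had at least 5 reads in all 3 control libraries and fewer than 5 in every ventral midbrain library, a pattern met by 36 of 19871 protein-coding genes (0.181%). The control mean of KCND2 was 4.47-fold the limit of 3 reads per library in ventral midbrain libraries. That ratio leaves out the spread of the control libraries. The low-count filter kept it out of the test. With no filter, 6 members were called higher and 2 lower, beside 1.68% and 2.01% of all genes. The edgeR adjusted p of KCND2 was then 0.023, and 0.092 with a filter of 5 reads in 3 libraries. KCND2 met that filter and the detection rule through the control libraries alone, and was picked after its values were seen. These p-values are therefore no separate support for the difference. KCND1 (Kv4.1) at 4.95 ± 1.61 and 3.35 ± 2.0 CPM and KCND3 (Kv4.3) at 0.560 ± 0.378 and 1.51 ± 0.587 CPM (SD, n = 3 each) did not pass the test, nor did KCNIP1 (1.31 and 1.09 CPM) or KCNIP2 (0.840 and 1.04 CPM).

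The peptidase-like partner DPP10 fell. It measured 18.0, 16.9 and 23.7 CPM in control and 5.72, 5.02 and 6.37 CPM in ventral midbrain libraries, with a wide gap between the groups. Its log2 fold change was -1.77 ± 0.24 (SE), with an edgeR adjusted p of 0.0050, and the call held in each of 6 fits that left out 1 library. DPP6, its relative, measured 17 ± 3.03 and 12.1 ± 6.26 CPM (SD, n = 3 each, adjusted p = 0.71). The neuron marker sums given above, in which STMN2 was the most abundant gene, were also lower in the ventral midbrain libraries. Not all neuron markers were lower, and the part of neurons in the KCND2 and DPP10 values was not tested.

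**Figure D4:**
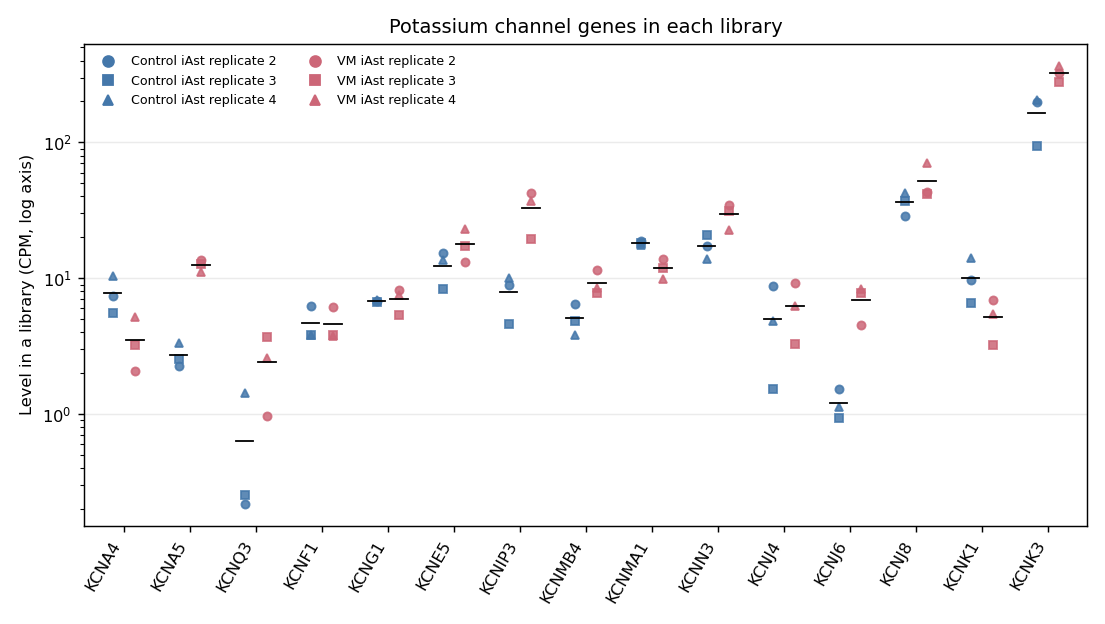
CPM on a log axis in each library for named potassium channel genes, with control and ventral midbrain replicates as points and black lines for group means. KCNA5, KCNJ6 and KCNIP3 show the widest separation, with all 3 ventral midbrain points above all 3 control points.

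The other auxiliary subunits are the cytoplasmic Kv beta subunits (KCNAB), the single-pass KCNE proteins, the beta subunits of the BK channel (KCNMB) and KCNRG, a cytoplasmic regulator. KCNE5 measured 15.4, 8.30 and 13.5 CPM in control and 13.3, 17.2 and 23.0 CPM in ventral midbrain libraries, with overlap (log2 fold change 0.52 ± 0.29, SE, with an edgeR adjusted p of 0.55). An exon of ACSL4 overlaps KCNE5 on the same strand, so the division of reads between them is uncertain. The same holds for KCNRG with TRIM13 (5500 TRIM13 reads over the 6 libraries) and KCNJ14 with GRWD1 (1639 GRWD1 reads). It also holds for KCNMB3 with LRRFIP1P1 and KCNA1 with AC005906.2. Whether counting used strand is not given, so genes on the opposite strand may add the same doubt. Examples are KCNMB3 with PIK3CA (1973 PIK3CA reads), KCNK15 with RIMS4 (1419 RIMS4 reads), KCNAB2 with NPHP4 (606 NPHP4 reads) and KCNAB1 with AC084036.1 (506 AC084036.1 reads). KCNAB1, KCNAB2, KCNAB3, KCNE1, KCNE3, KCNMB3 and KCNRG had log2 fold changes from -0.57 (KCNMB3) to 0.38 (KCNE3), none past the test. Of the 12 tested genes 1 rose and none fell, with a median log2 fold change of 0.16.

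Of the calcium- or sodium-activated channel genes 0 of 4 tested were called by edgeR, by DESeq2 or by voom, while KCNN3 and KCNMA1 were the 2 whose unadjusted edgeR p was under 0.05. KCNN3 encodes SK3, a small-conductance channel with a known role in dopamine neurons of the midbrain. It measured 17.3, 20.8 and 13.8 CPM in control and 34.8, 31.5 and 22.6 CPM in ventral midbrain libraries. The ventral midbrain libraries were all higher, with the lowest of them just above the highest control library. Its log2 fold change was 0.78 ± 0.23 (SE), with an edgeR adjusted p of 0.15, or 0.012 under the replicate block. KCNN1 (SK1) measured 0.721 ± 0.425 and 0.942 ± 0.222 CPM and the sodium-activated KCNT2 2.54 ± 1.01 and 3.06 ± 1.61 CPM (SD, n = 3 each), with overlap.

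KCNMA1 encodes the pore of BK, the large-conductance channel found on astrocyte endfeet. It measured 18.8, 18.3 and 17.7 CPM in control and 13.8, 11.9 and 9.95 CPM in ventral midbrain libraries, all below control. The KCNMA1 difference was -0.62 ± 0.21 (SE) on the log2 scale, with an edgeR adjusted p of 0.23, or 0.078 under the replicate block. KCNMB4, the BK beta subunit typical of brain, ran the other way, at 6.51, 4.88 and 3.86 CPM in control and 11.6, 7.84 and 8.45 in ventral midbrain libraries, all above control (0.87 ± 0.32, adjusted p = 0.26). Neither BK gene passed the test with or without the block. Another beta subunit gene, KCNMB2, had 10, 0 and 2 reads in control and 83.3, 18.0 and 3.5 reads in ventral midbrain libraries, so that 1 library held most of its reads. It was too low for the test, and its edgeR adjusted p was 0.029 with no filter and 0.43 with a filter of 5 reads in 3 libraries.

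KCNJ6 was the inward rectifier gene that rose, 1 of 8 tested in that family. It encodes GIRK2, a channel opened by G protein-coupled receptors and known as a marker of substantia nigra dopamine neurons. It measured 1.54, 0.941 and 1.13 CPM in control and 4.55, 7.84 and 8.38 CPM in ventral midbrain libraries, corresponding to 21, 10.8 and 15.5 and to 70, 100.3 and 116.9 estimated reads. The lowest ventral midbrain library was well above the highest control library. The gene lies on GRCh38 chromosome 21 from 37607376 to 38121345, and no other gene with reads has exons that overlap it. The KCNJ6 read sums were not all whole numbers, so some reads were divided with transcripts outside the sum. The mean rose from 1.2 ± 0.304 to 6.92 ± 2.07 CPM (SD, n = 3 each), a log2 fold change of 2.51 ± 0.44 (SE), with an edgeR adjusted p of 0.016, or 0.0029 under the replicate block. The call was lost without control replicate 4 (adjusted p = 0.070), ventral midbrain replicate 3 (0.055) or ventral midbrain replicate 4 (0.075), and with limma voom (0.056), a gene-length offset (0.075) or the deposited normalized values (0.087). Of the other GIRK genes, KCNJ3 (GIRK1) measured 1.70 ± 0.828 and 1.49 ± 0.909 CPM and KCNJ5 (GIRK4) 0.928 ± 0.808 and 0.613 ± 0.314 CPM (SD, n = 3 each), neither past the test, and KCNJ9 (GIRK3) was not detected.

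KCNJ8 encodes Kir6.1, the pore of ATP-sensitive channels of vascular type, which assemble with the sulfonylurea receptor SUR2 (ABCC9). It measured 29, 37.2 and 42.4 CPM in control and 43.0, 41.9 and 70.3 CPM in ventral midbrain libraries. The groups overlapped narrowly (log2 fold change 0.51 ± 0.23, SE, with an edgeR adjusted p of 0.42). ABCC9 lies beside KCNJ8 on chromosome 12 and measured 16.3, 18.6 and 23.6 CPM in control and 31.3, 36.0 and 54.7 in ventral midbrain libraries, without overlap (1.06 ± 0.24, adjusted p = 0.054, and 0.00084 with the replicate block). ABCC8 (SUR1) was not detected, like KCNJ11. Both KCNJ8 and ABCC9 are also known from pericytes and smooth muscle. The smooth muscle markers ACTA2, TAGLN, MYH11, CNN1 and DES summed to 117 to 156 CPM in control and 118 to 204 in ventral midbrain libraries, with MYH11 at 0.126 and 0.163 CPM. Of these DES measured 2.58 and 10.7 CPM (edgeR adjusted p = 0.24, or 0.0015 under the block). The mural cell gene PDGFRB, from the mesenchymal list, measured 17.6 and 15.8 CPM (adjusted p = 0.90). The part of such cells was not tested.

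The other inward rectifiers, the strong rectifiers KCNJ2, KCNJ4, KCNJ12 and KCNJ14, measured between 1.11 and 9.17 CPM in every library. KCNJ4 (Kir2.3) measured 8.78, 1.54 and 4.84 CPM in control and 9.17, 3.29 and 6.23 CPM in ventral midbrain libraries, with replicate 2 highest and replicate 3 lowest in both groups. Its log2 fold change was 0.30 ± 0.59 (SE), and those of the other 3 ranged from -0.43 (KCNJ12) to 0.39 (KCNJ2), none past the test.

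Among the K2P leak channels KCNK3 measured 199, 93.7 and 204 CPM in control and 323, 277 and 365 CPM in ventral midbrain libraries. Every ventral midbrain library was above every control library, and replicate 3 was the lowest of each group. The means were 166 ± 62.3 and 322 ± 44.0 CPM (SD, n = 3 each), a log2 fold change of 0.96 ± 0.28 (SE), with an adjusted p of 0.16 by edgeR, 0.0014 by edgeR under the replicate block and 0.016 by DESeq2. KCNK3 lies on GRCh38 chromosome 2 from 26692690 to 26733420, and its reads were assigned to 1 transcript, KCNK3-201. The KCNK3 read sums were not whole numbers, so some reads were divided with transcripts outside the sum. Of the 8 tested K2P genes 0 passed edgeR's test, 2 had an unadjusted p under 0.05, and DESeq2 called 1, KCNK3.

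The other K2P genes were far lower. KCNK1 encodes TWIK-1, which together with TREK-1 is known for the passive conductance of astrocytes. It measured 9.66, 6.59 and 14.0 CPM in control and 6.89, 3.21 and 5.44 CPM in ventral midbrain libraries, with overlap, and the ventral midbrain library was the lower at each replicate number (log2 fold change -0.96 ± 0.38, SE, with an edgeR adjusted p of 0.32). KCNK2 (TREK-1) measured 1.02, 3.76 and 2.50 CPM in control and 5.20, 2.98 and 7.95 in ventral midbrain libraries (1.15 ± 0.54, adjusted p = 0.44). KCNK5, KCNK6, KCNK10, KCNK13 and KCNK15 had log2 fold changes from -0.41 (KCNK6) to 1.06 (KCNK13), none past the test. The median over the 8 tested K2P genes was 0.79.

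A list of 35 other genes that handle potassium or partner these channels was read from the same fit. It too was chosen with earlier results of these data known. Of its 26 tested genes 1 rose, 2 fell and 23 did not pass, with a median log2 fold change of 0.11. The 3 calls are 11.5% of those tested, beside 2.15% of all genes, and under the replicate block 6 passed (23.1%), 2 higher and 4 lower, beside 8.13% of all genes. ATP1B1, a beta subunit of the sodium-potassium pump, measured 109, 92.0 and 80.0 CPM in control and 213, 255 and 187 CPM in ventral midbrain libraries, all above control. ATP1B1 rose by 1.22 ± 0.18 (SE) on the log2 scale, with an edgeR adjusted p of 0.0062, and was called in each of 6 fits that left out 1 library. CNTNAP2, which clusters Kv1 channels along axons, measured 10.1, 14.1 and 13.5 CPM in control and 5.85, 5.41 and 4.44 CPM in ventral midbrain libraries, without overlap. It fell by 1.26 ± 0.27 (SE) on the log2 scale, with an edgeR adjusted p of 0.044, and the call was lost in each of the 6 fits that left out 1 library (adjusted p 0.060 to 0.16). DPP10 is the other gene that fell.

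Of the abundant pump genes, the regulator FXYD6 measured 272 ± 54.1 and 343 ± 64.1 CPM and the glial beta subunit ATP1B2 127 ± 20.9 and 140 ± 24 CPM (SD, n = 3 each), with overlap between the groups.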

How the data were processed

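RNA of 6 libraries was read from the 3' end. The submitters' processing notes name Salmon (version not given), DESeq2 1.27.12 and GRCh38.p13. Files deposited by the authors hold estimated counts, TPM and effective lengths per transcript, and a table the authors deposited holds normalized gene signal, used only as an alternative. Whether counting used strand, and Salmon's index, are not given in the sources used here.

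Estimated counts were summed per gene with GENCODE v29 for 205225 of 226608 transcripts (90.6%). Unmatched transcripts held 0.992% to 1.12% of reads. Sums were rounded, filtered with filterByExpr (15984 of 27439 genes with reads left) and TMM-scaled. edgeR 4.0.16 (quasi-likelihood, robust, R 4.3.3) tested ventral midbrain against control over all genes with Benjamini-Hochberg adjustment at 0.05. The common biological coefficient of variation was 0.309. SE is the absolute log2 fold change over the square root of F. TPM served only to order genes. The method was tested on simulated counts with 100 genes changed 2-fold and 100 changed 4-fold. It recovered 27% of the 2-fold and 80% of the 4-fold changes, and 11 of its 118 calls were false. Most 2-fold changes were thus missed, so not passing the test does not show equal levels.

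The members and the partner and marker lists were chosen with earlier results of these data known. Genes given library by library are those past the threshold with or without the block, those with an unadjusted p under 0.05 and the 2 most abundant per family, and partners past the threshold and their 4 most abundant. KCND2, KCNMB2, KCNK2 and ABCC9 were added after their values were seen. Some genes meeting this rule are left unreported by name, and counts, sums and medians include them.

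The groups share replicate numbers 2, 3 and 4. Deviations from group means correlated at 0.234, 0.345 and 0.204 for the same numbers, against -0.254 to 0.0237 for others. Because each group was centred on its own mean, positive same-number values force lower values for the others, which are no separate evidence. By the hint of the same-number values alone the numbers were treated as pairing, although no label says what they share. Alternatives were 2 other scalings, 3 other filters, DESeq2 1.42.0, voom of limma 3.58.1, the block, protein-coding genes alone, the deposited values on log2(value + 1), a gene-length offset and leaving out each library. Figures used matplotlib 3.10.9.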

Additional observations from a re-analysis of the deposited data

How the results depend on the processing

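Counts of potassium channel genes past the threshold, 3 in the edgeR test reported, came to 8 with no low-count filter and 7 with the replicate block, and to between 1 and 3 when 1 library was left out. KCNA5 was among them under every alternative run. The 2 other scalings, the filters of 2 CPM or 5 reads in 3 libraries, protein-coding genes alone and DESeq2 each kept all 3 calls. KCNIP3 and KCNJ6 were each lost without some libraries, and KCNJ6 also with voom, the length offset and the deposited values. The count over all genes, 344, came to 750 with DESeq2, 182 with the deposited values, 174 with the gene-length offset, 1012 with no filter, 1300 with the replicate block and 131 to 258 with 1 library left out. The partner list, with 3 calls, gave 6 with DESeq2, no filter or the block. Detection fell from 64 to 36 genes when 5 reads were asked of all 6 libraries, and lay between 57 and 62 with 1 library left out. Small log2 fold changes reversed. KCNF1 (-0.019) ranged from -0.30 to 0.26 and KCNJ4 (0.30) from -0.12 to 0.96 with 1 library left out. KCNG1 (0.053) was -0.22 with the deposited values, -0.14 with the length offset and -0.080 to 0.21 with 1 library left out. Except for fits with fewer genes or libraries, the cause was not tested. Most members held under 10 CPM, and the effect of level on the calls was not tested.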
